A study of Rattus norvegicus with 6 samples.

Results

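Mitochondrial chaperones and proteases were followed in a rat insulinoma line that makes misfolded proinsulin. The genes were Hspd1, Hspe1, Hspa9, Dnaja3, Trap1, Lonp1, Clpp, Afg3l2, Yme1l1 and Htra2. They were taken by name, as the genes of probesets that a probe-to-gene table assigns to exactly 1 symbol, and all 10 were found among the 12603 genes measured. They were read by 15 probesets, 8 genes by a single probeset, Hspa9 by 3 and Yme1l1 by 4.

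All cells were of 1 clone of INS-1, a rat pancreatic β-cell tumour line, in which doxycycline (Dox) switches on a GFP fusion of insulin 2 that carries the Akita change, C96Y, and so misfolds in the ER. One group was left untreated, another had Dox at 4 μg/ml by the sample labels, and the last had the same Dox together with 4μ8c at 5 μM, which blocks the RNase of the ER stress sensor IRE1. Treatment lasted 48 h. The methods of the paper name a lower Dox dose than the labels do. Both treated groups differ from untreated cells in Dox as well as in mutant proinsulin, so effects of the antibiotic and of the protein cannot be told apart. Every group had 2 Affymetrix arrays, 1 from each of 2 independent experiments, 6 arrays in all, and 4μ8c without Dox was not analysed here.

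Most mitochondrial proteins are made in the cytosol and enter the organelle unfolded. In the matrix, HSP70 and its partners pull them in, the HSP60 and HSP10 chaperonin folds them, and ATP-dependent proteases of the matrix and inner membrane remove those that fail. When misfolded protein builds up in mitochondria, cells can raise these genes, which is called the mitochondrial unfolded protein response, and in mammals the transcription factors ATF4, ATF5 and CHOP are tied to it. The same factors are made by the PERK branch of the ER stress response, and a few mitochondrial quality-control genes are known as ATF4 targets. The comparison of untreated and Dox cells shows whether the mRNAs of the mitochondrial set differ once Dox has switched on the misfolded protein. That of Dox+4μ8c with Dox shows whether they differ when the inhibitor is added to Dox.

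Values are RMA log2 signals, centred around 0 probeset by probeset in each experiment, so a value says how an array stands against the other arrays of its experiment and not how abundant an mRNA is. Log2 changes average the group differences of both experiments. Their standard error (SE) and p-value, the latter adjusted by Benjamini-Hochberg over all 12603 genes, come from a limma model that includes the experiment, and a gene passed at an adjusted p under 0.05. For the same reason the β-cell label could not be checked by the level of its markers. Of 8 β-cell markers 7 were measured, and Iapp and Mafa were the only ones of them to pass with Dox, both lower, at -0.25 and -0.56. Between the treated groups Mafa differed by 0.62, with Dox+4μ8c the higher (adjusted p = 0.0189 by limma). With quantile normalization or with the probeset of largest SD per gene, 0 of all genes were called higher in that comparison. The call of Mafa was thus lost there. Of 2 measured α-cell markers Gcg, which encodes glucagon, passed in both treated groups, at -2.22 with Dox and -1.36 with Dox+4μ8c, and 0 of the single ductal, mesenchymal and immune markers measured did. The part of these changes in the results was not tested. The arrays were few and uneven. Dox replicate 2 had the widest spread over genes (SD 0.153, against 0.0470 to 0.117 on the others), and the gap between 5′ and 3′ probesets of its poly-A spike-ins had a median shift of -0.53 (log2) from its own untreated array, beside -0.26 to -0.0060 on the other treated arrays. The hybridization controls, spiked in equal amounts, read higher on the treated arrays of experiment 1 than on its untreated array (by 0.25 with Dox and 0.19 with Dox+4μ8c) and lower in experiment 2 (-0.16 and -0.13).

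A further feature of the deposited values bears on small changes. In experiment 1, 25.5% of all probesets had exactly 0 on all 3 arrays and another 31.7% on 2 of them, whereas in experiment 2 the first share was 0.0039%. Of the 15 probesets read here, 2 were at 0 on all 3 arrays of experiment 1 and 6 on 2 of them. Arrays that share an exact 0 are tied in the deposited table, and whether a small difference lies behind a tie cannot be told from it. For Clpp, and for Hspe1 and Afg3l2 with Dox, the fitted change is therefore the difference in experiment 2 averaged with a 0 from experiment 1.

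With Dox, Hspa9 and Htra2 rose, and none of the 10 genes fell. That is 2 of 10 higher, beside 4.42% of all genes called higher and 2.01% called lower in the same comparison. At an unadjusted p under 0.05 limma had 3 higher, the third being Lonp1, and 0 lower. The median log2 change was 0.070 over the 10 genes and 0.011 over all genes, and 9 of the 10 lay above 0, as did 54.8% of all genes. With Dox+4μ8c against untreated, Hspa9 alone passed, 1 of 10 beside 1.17% of all genes called higher and 1.13% lower, and 0 fell (0 at an unadjusted p under 0.05). The median was 0.06 over the 10 genes and -0.0018 over all genes, and the untreated arrays serve both comparisons. In the fit without the experiment term (without a replicate block) 0 of the 10 passed in either comparison. The experiments were centred differently, so that fit also counts any offset between their zeros as spread within a group. The part of this offset in the lost calls was not tested.

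**Figure D1:**
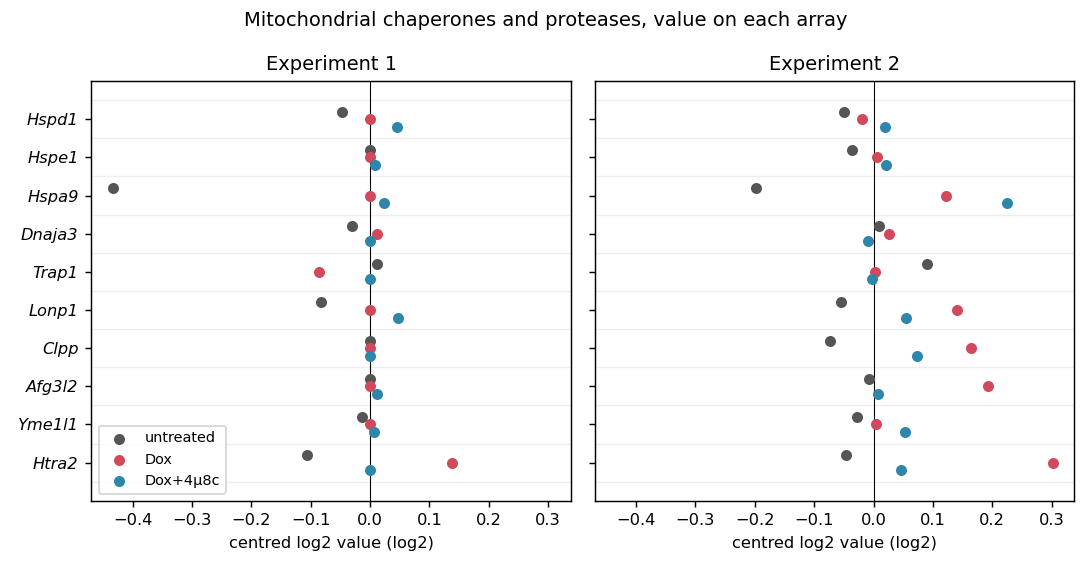
Centred log2 value (x axis) of each mitochondrial chaperone or protease gene (rows) on the 3 arrays of experiment 1 (left) and of experiment 2 (right), coloured by group. Untreated cells lie lowest for Hspa9 in both experiments, at -0.43 and -0.20, and Dox lies highest for Htra2 in both, at 0.14 and 0.30.

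Hspa9 encodes mortalin, the HSP70 of the matrix, which drives protein import and hands chains on to the chaperonin. In experiment 1 its values were -0.43 in untreated cells, 0 with Dox and 0.024 with Dox+4μ8c. In experiment 2 they were -0.20, 0.12 and 0.23 in the same order. Both treated arrays lay well above the untreated array in each experiment, with Dox+4μ8c the highest each time. The log2 change with Dox was 0.38 (SE 0.05, adjusted p = 0.0111 by limma, n = 2 arrays per group), a fold change of 1.30 with a 95% interval from 1.19 to 1.41, and it was the rise of rank 306 among the 12603 genes. With Dox+4μ8c it was 0.44 (SE 0.05, adjusted p = 0.0168), at rank 84. Between Dox+4μ8c and Dox the difference was 0.06, with a 95% interval from -0.06 to 0.19 (adjusted p = 0.686 by limma), so no change of Hspa9 with the inhibitor was shown, and the interval leaves room for a small one either way. That difference was 0.11 without Dox replicate 1, 0.015 without Dox replicate 2, 0.16 with quantile normalization and 0.014 with the median over probesets. The call with Dox was lost without the experiment term (adjusted p = 0.106), with arrays quantile-normalized within an experiment (the lowest of log2 changes from 0.28 to 0.58 over the alternatives, adjusted p = 0.115), and without untreated replicate 1 (adjusted p = 0.0858) or 2 (adjusted p = 0.0562). With Dox+4μ8c it was lost without the experiment term (adjusted p = 0.137) and with either untreated array (adjusted p = 0.114 and 0.0752) or either Dox+4μ8c array left out (adjusted p = 0.203 and 0.199), and the log2 change stayed between 0.40 and 0.57 over all alternatives. Without Dox replicate 2 both rises passed (adjusted p = 0.00936 and 0.00234 by limma). The part of the shifts in the hybridization controls in this rise was not tested.

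The 3 probesets of Hspa9 did not move alike. Probeset 1388851_at was above untreated by 0.60 and 0.56 with Dox in experiments 1 and 2, and by 0.61 and 0.53 with Dox+4μ8c. Probeset 1370690_at was above by 0.54 and 0.46 with Dox, and by 0.60 and 0.48 with Dox+4μ8c. Probeset 1391915_at differed by 0.15 and -0.06 with Dox and by 0.15 and 0.26 with Dox+4μ8c. When limma was run on single probesets, the first pair passed with Dox (log2 change 0.58, adjusted p = 0.0124, and 0.50, adjusted p = 0.0168) and with Dox+4μ8c (0.57, adjusted p = 0.0263, and 0.54, adjusted p = 0.0334), while 1391915_at had 0.05 (adjusted p = 0.809) and 0.21 (adjusted p = 0.396). The average over the gene is thus smaller than what 2 of its 3 probesets read.

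**Figure D2:**
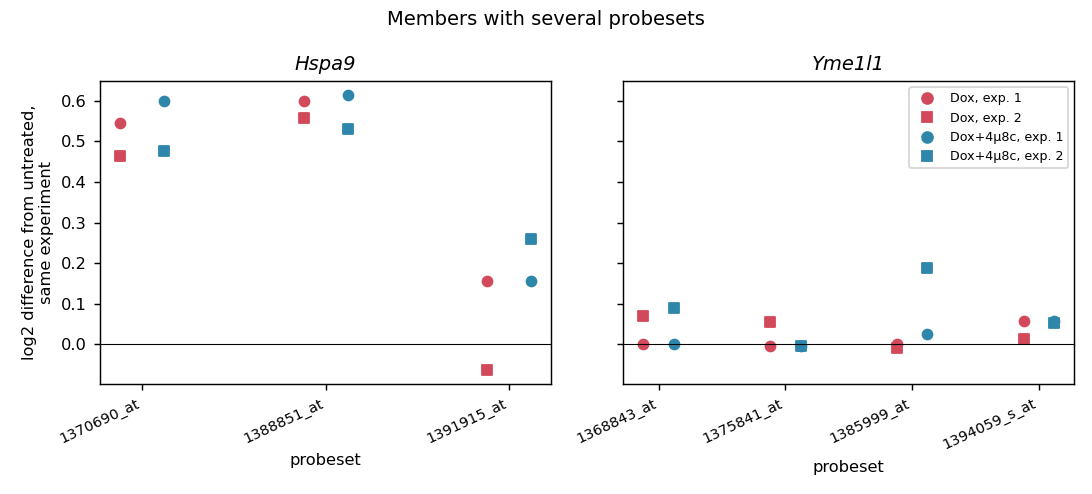
Log2 difference from untreated cells of the same experiment (y axis) for each probeset of Hspa9 (left) and Yme1l1 (right), with Dox in red and Dox+4μ8c in blue, circles for experiment 1 and squares for experiment 2. Of Hspa9, 2 probesets lie between 0.46 and 0.61 and 1391915_at between -0.06 and 0.26, while those of Yme1l1 lie between -0.0095 and 0.19.

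The promoter of Hspa9 is shown because this was the member that rose in both treated groups. The window is from RefSeq, build GRCr8, chr18:26828349-26828648 on the minus strand, 250 bases before to 50 after the annotated start, and the capitals mark the only match to TGATGNAA, the composite site of ATF4 and C/EBP factors, on either strand.
Hspa9: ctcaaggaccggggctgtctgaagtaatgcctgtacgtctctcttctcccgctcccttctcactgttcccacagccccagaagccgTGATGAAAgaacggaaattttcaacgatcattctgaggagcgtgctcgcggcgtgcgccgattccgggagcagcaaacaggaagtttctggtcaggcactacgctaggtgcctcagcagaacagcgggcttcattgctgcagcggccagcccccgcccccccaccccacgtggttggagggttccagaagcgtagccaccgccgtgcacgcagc
The match begins 164 bases before the start. The table held windows for 8 of the 10 genes (not Lonp1 or Htra2), and 1 of the 8 had this motif, as had 3.98% of the 33469 promoters. The ER stress element (ERSE) was in 0 of the 8 and in 0.0657% of all promoters. A match of letters is a description and no evidence of binding.

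Htra2 encodes HTRA2, also called Omi, a serine protease of the intermembrane space that degrades damaged protein there and promotes apoptosis when released. Its values in experiment 1 were -0.11 in untreated cells, 0.14 with Dox and 0 with Dox+4μ8c, and in experiment 2 they were -0.05, 0.30 and 0.05. In both experiments Dox was highest, untreated lowest and Dox+4μ8c in between. The log2 change with Dox was 0.30 (SE 0.05, adjusted p = 0.0263 by limma), a fold change of 1.23 with a 95% interval from 1.13 to 1.34. With Dox+4μ8c it was 0.10 (SE 0.05, adjusted p = 0.441), which did not pass. The direct difference between Dox+4μ8c and Dox was -0.20 (SE 0.05), -0.14 and -0.26 in experiments 1 and 2, and it missed the threshold after adjustment (adjusted p = 0.181 by limma, unadjusted p = 0.0085), so a loss of the rise under the inhibitor was not shown. It was the only difference among the 10 genes below an unadjusted p of 0.05 in that comparison, where 0 passed, beside 0.175% of all genes called higher and 1.61% called lower. The rise with Dox held under 7 of 15 alternatives, but several of these leave the values of Htra2 as they are. They were the median over probesets, ambiguous probesets added, tied genes left out, genes of low range left out and robust eBayes. In them the log2 change stayed at 0.30, and only the SE or the adjustment could move. The range filter looks at all arrays, so it also counts differences between groups. It was lost without the experiment term (adjusted p = 0.0645), with quantile normalization (0.0779), with 1 probeset kept per gene (0.0637) and when any array other than Dox replicate 1 was left out (0.0761 to 0.18). Without Dox replicate 2, the array with the widest spread of centred values, the log2 change was 0.24. Htra2 had a single probeset, and on the probeset scale it did not pass (adjusted p = 0.0563).

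The other proteases of the matrix and inner membrane had positive log2 changes with Dox that did not pass. Lonp1 encodes the LON protease, which clears oxidized and misfolded matrix proteins. It read -0.08 in untreated cells, 0 with Dox and 0.05 with Dox+4μ8c in experiment 1, and -0.05, 0.14 and 0.05 in experiment 2. Both treated arrays were above untreated in each experiment, and their order differed between experiments. The log2 change was 0.14 with Dox (SE 0.05, unadjusted p = 0.0398 and adjusted p = 0.222 by limma) and 0.12 with Dox+4μ8c (SE 0.05, adjusted p = 0.368). Without Dox replicate 2 the change with Dox was 0.078 (adjusted p = 0.789 by limma).

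Clpp encodes the proteolytic chamber of the ClpXP protease. Its values were 0 on all 3 arrays of experiment 1, and -0.07, 0.16 and 0.07 in untreated, Dox and Dox+4μ8c cells of experiment 2. Afg3l2, a subunit of the m-AAA protease that faces the matrix, had 0, 0 and 0.011 in experiment 1 and -0.0082, 0.19 and 0.0082 in experiment 2. For both genes Dox replicate 2 was the highest array, and no array of experiment 1 differed from the others by more than 0.011. Their log2 changes with Dox were 0.12 (SE 0.07, adjusted p = 0.382) and 0.10 (SE 0.06, adjusted p = 0.437), with 95% intervals from -0.04 to 0.28 and from -0.06 to 0.26. Without Dox replicate 2 they were 0.037 for Clpp and 0.0013 for Afg3l2, and without untreated replicate 2 they were 0.023 and 0.049. Without Dox replicate 1 both were 0.20, and without untreated replicate 1 they were 0.21 and 0.15.

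Yme1l1 encodes the i-AAA protease, which faces the intermembrane space and processes the fusion protein OPA1. Averaged over 4 probesets it read -0.013, 0 and 0.0063 in experiment 1 and -0.03, 0.0042 and 0.05 in experiment 2, again in the order untreated, Dox and Dox+4μ8c. The order was the same in both experiments, but the log2 changes of 0.023 (SE 0.05, adjusted p = 0.822) with Dox and 0.05 (SE 0.05, adjusted p = 0.674) with Dox+4μ8c were close to their SE or smaller. Among its probesets the highest value was 0.16, of 1385999_at on Dox+4μ8c replicate 2.

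**Figure D3:**
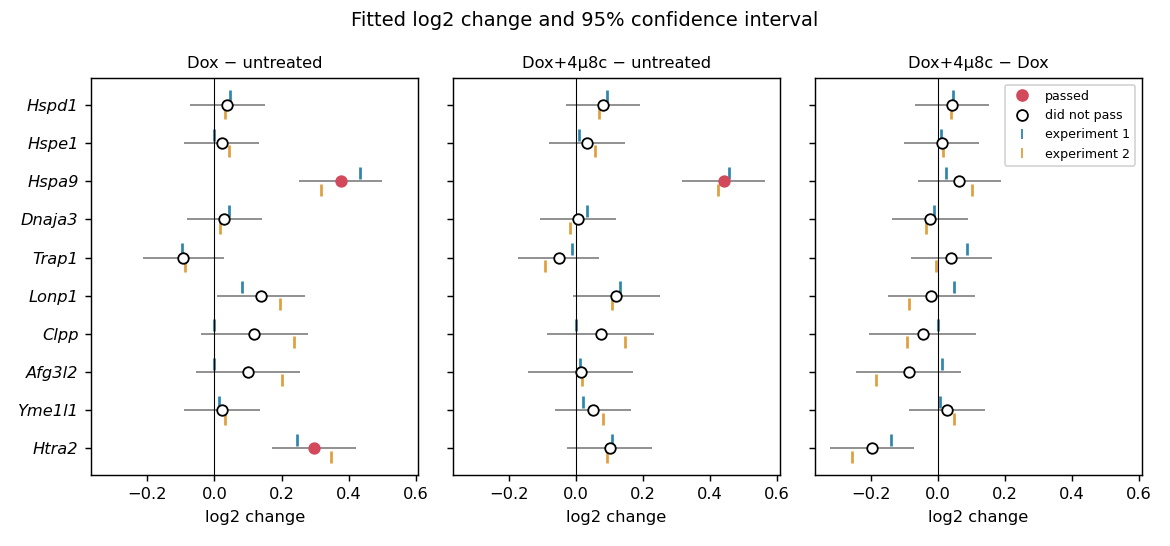
Fitted log2 change (x axis) of the 10 genes in the 3 comparisons, with 95% confidence intervals from limma as horizontal lines, filled red points for genes past an adjusted p of 0.05 and short ticks for the difference in each experiment. Hspa9 and Htra2 are filled with Dox, Hspa9 alone with Dox+4μ8c, and none in the comparison of Dox+4μ8c with Dox.

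The chaperonin genes had log2 changes near 0 that did not pass. Hspd1 encodes HSP60, which forms the folding barrel, and Hspe1 encodes HSP10, its lid. In untreated, Dox and Dox+4μ8c cells, Hspd1 read -0.05, 0 and 0.05 in experiment 1 and -0.05, -0.02 and 0.02 in experiment 2. Hspe1 read 0, 0 and 0.0085, and then -0.04, 0.0059 and 0.02. Hspd1 thus ran in the same order in both experiments. With Dox the log2 changes were 0.04 (SE 0.05, adjusted p = 0.672) for Hspd1 and 0.021 (SE 0.05, adjusted p = 0.831) for Hspe1, and with Dox+4μ8c they were 0.08 (adjusted p = 0.479) and 0.03 (adjusted p = 0.789). The 95% intervals with Dox reached fold changes of 1.11 and 1.10, below the 1.30 of Hspa9. For Hspe1 the untreated and Dox arrays of experiment 1 were tied at 0. Its interval takes that tie as a difference of 0 and may be too narrow.

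These genes lie head to head and share a promoter. Their RefSeq windows overlap by 211 bases, and that of Hspe1 (GRCr8, chr9:64084077-64084376, plus strand) is shown because it serves both members. The capitals mark first TGCAAT, a core bound by C/EBP and CHOP dimers, and then a stretch with 2 overlapping matches to the heat shock element, in which GAA and TTC blocks alternate with 2 bases between them. Both strands were searched.
Hspe1: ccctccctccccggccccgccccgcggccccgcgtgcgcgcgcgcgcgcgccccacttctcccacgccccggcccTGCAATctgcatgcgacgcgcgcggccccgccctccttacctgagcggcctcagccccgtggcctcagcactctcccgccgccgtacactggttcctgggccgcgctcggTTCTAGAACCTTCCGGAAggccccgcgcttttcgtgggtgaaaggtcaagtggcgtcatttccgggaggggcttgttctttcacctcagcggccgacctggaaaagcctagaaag
The heat shock element was in the windows of 2 of 8 members, this pair, and in 0.798% of all promoters. TGCAAT was in the same 2 windows and in 8.37% of all promoters. Because the windows overlap, the same bases gave both genes' matches. The NRF1 motif was in 1 of the 8, that of Dnaja3, and in 4.25% of all.

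The remaining chaperones did not pass either. Dnaja3 encodes TID1, the J-domain partner that feeds substrates to mortalin. It read -0.03, 0.012 and 0 in experiment 1 and 0.0096, 0.03 and -0.0096 in experiment 2, in untreated, Dox and Dox+4μ8c cells. Its log2 changes were 0.03 (SE 0.05, adjusted p = 0.759) with Dox and 0.0059 (SE 0.05, adjusted p = 0.967) with Dox+4μ8c. Trap1, the HSP90 of mitochondria, was the only member below 0 in both comparisons with untreated cells. It read 0.011, -0.09 and 0 in experiment 1 and 0.09, 0.0032 and -0.0032 in experiment 2, so that untreated cells were highest each time. The log2 change was -0.09 with Dox (SE 0.05, adjusted p = 0.37) and -0.05 with Dox+4μ8c (SE 0.05, adjusted p = 0.676).

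The partners of these proteins were read from lists written with earlier results of these data known. Of 9 mitochondrial co-chaperones and assembly partners, all measured, 0 passed in either direction with Dox by limma (0 at an unadjusted p under 0.05), with a median log2 change of 0.04. Grpel1, the nucleotide exchange factor of mortalin, was at 0.11 (adjusted p = 0.267) and Clpx, the unfoldase that feeds ClpP, at 0.11 (adjusted p = 0.259). Of 15 other mitochondrial proteases and peptidases 14 were measured, and 0 passed (0 at an unadjusted p under 0.05), with a median of -0.0097. Of 22 genes of mitochondrial protein import 20 were measured, with a median of 0.05 with Dox. Of these 0 passed with Dox (3 higher and 3 lower at an unadjusted p under 0.05). Over all genes 4.42% were called higher and 2.01% lower with Dox. With Dox+4μ8c 0 of the 3 lists' genes passed against untreated cells (0, 0 and 3 higher and 1, 0 and 3 lower at an unadjusted p under 0.05). Without Dox replicate 1 a few of the other proteases passed as lower with Dox and an import gene as higher. In that fit the calls with Dox over all genes also grew in both directions. With either Dox array left out an import gene passed as higher with Dox+4μ8c, where such calls over all genes also grew.

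Of 12 transcription factors tied to the mitochondrial response, all measured, 4 rose with Dox and 0 fell, and the median log2 change was 0.12. Over all genes 4.42% were called higher and 2.01% lower with Dox, and 1.17% higher with Dox+4μ8c. Atf5 was at 1.16 (adjusted p = 0.00072), Ddit3, which encodes CHOP, at 1.20 (adjusted p = 0.000999), Atf4 at 0.99 (adjusted p = 0.00164) and Cebpb at 0.46 (adjusted p = 0.0104). The same 4 genes rose with Dox+4μ8c, at 1.26, 1.20, 0.82 and 0.49, and 0 of the 12 differed between Dox+4μ8c and Dox past the test (1 lower at an unadjusted p under 0.05). Of 9 measured genes of mitochondrial and secreted stress output known as ATF4 targets, 8 rose with Dox and 6 with Dox+4μ8c. Among them Mthfd2 and Shmt2, folate enzymes of the matrix, were at 1.01 (adjusted p = 0.00124) and 0.68 (adjusted p = 0.00318) with Dox. Trib3 and Chac1, which are not mitochondrial enzymes, were at 2.88 and 2.23. The paper's qPCR differs for CHOP, for which it reports no significant effect of the mutant protein at 48 h. It also reports Trib3 as reduced by the inhibitor, whereas here Trib3 differed by -0.08 between Dox+4μ8c and Dox (adjusted p = 0.761 by limma). Gdf15, a secreted stress hormone, was the only 1 of the 9 to pass between Dox+4μ8c and Dox, at -0.48 (adjusted p = 0.0236), and it did not pass without either Dox+4μ8c array, with quantile normalization or with the probeset of largest SD per gene. At an unadjusted p under 0.05 limma had 5 of the 9 lower with Dox+4μ8c than with Dox, and 0 higher. Their median log2 change in that comparison was -0.16, beside -0.014 over all genes, and 1.61% of all genes were called lower. Without the experiment term the 4 became 0 with Dox and 0 with Dox+4μ8c, and the 8 and 6 became 3 and 0. Leaving out either Dox+4μ8c array left 2 of the 4 with Dox+4μ8c, and the 6 became 2 without untreated replicate 1, 2 without Dox+4μ8c replicate 1 and 3 without Dox+4μ8c replicate 2.

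**Figure D4:**
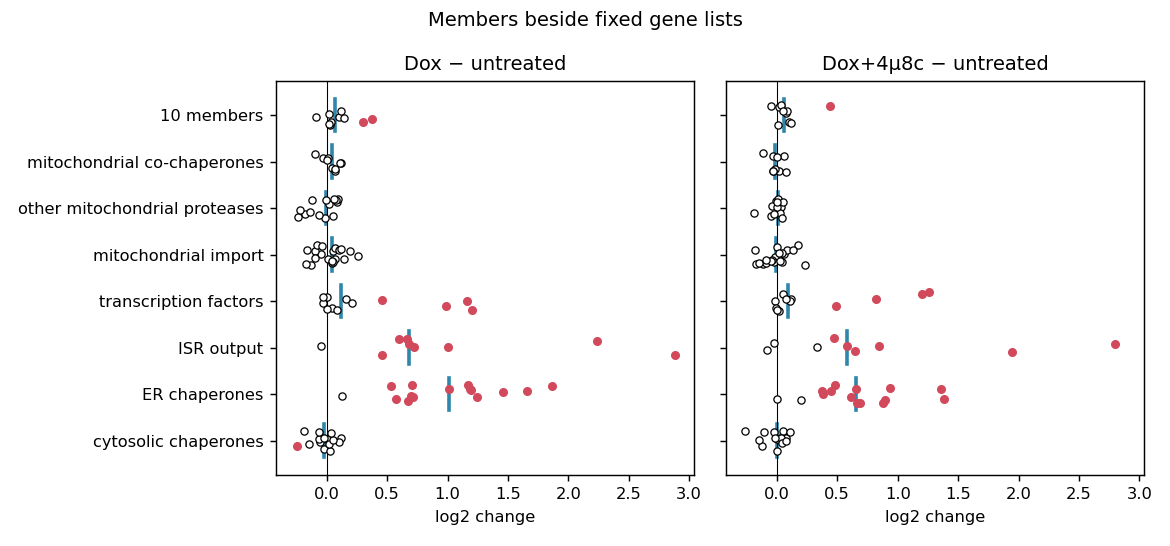
Fitted log2 change (x axis) of the 10 members and of 7 gene lists (rows) with Dox (left) and Dox+4μ8c (right) against untreated cells. Each point is a gene, filled red past an adjusted p of 0.05, with some vertical scatter for legibility, and the blue bar is the median, which was 0.070 for the members and 1.01 for ER chaperones with Dox.

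Chaperones of other compartments gave the scale. Of 15 ER chaperones and co-chaperones, 14 rose with Dox and 13 with Dox+4μ8c, beside 4.42% and 1.17% of all genes. Their median log2 changes were 1.01 and 0.65, beside 0.070 and 0.06 for the mitochondrial members. Sdf2l1, of the ER HSP70 complex, was at 1.86 (adjusted p = 0.000313), Creld2 at 1.46, Pdia4, a disulfide isomerase, at 1.19 and Dnajb11, an ER co-chaperone, at 1.01 with Dox. Between Dox+4μ8c and Dox, 5 of the 15 were lower (Dnajb9, Dnajb11, Dnajc3, Sdf2l1 and Creld2, named for the small count), beside 0 of the 10 mitochondrial members. Over all genes 1.61% were called lower in that comparison, so 0 of 10 is near that share. Of 18 cytosolic chaperones 15 were measured. With Dox 0 rose (0 at an unadjusted p under 0.05) and 1 fell, beside 4.42% and 2.01% of all genes. The 1 that fell was Bag3, an HSP70 exchange factor, at -0.25 (adjusted p = 0.0432 by limma). Without the experiment term the 14, 13 and 5 ER genes became 3, 0 and 1, and Bag3 did not pass. As above, that fit counts offsets between the differently centred experiments as spread, and their part in the lost calls was not tested. The 5 became 0 with quantile normalization, with the probeset of largest SD per gene or when either Dox+4μ8c array was left out, and 3 without Dox replicate 2. The 13 became 3 without untreated replicate 1, 1 without Dox+4μ8c replicate 1 and 5 without Dox+4μ8c replicate 2, and 7 with the probeset of largest SD. Bag3 had an adjusted p of 0.0624 to 0.28 when 1 array was left out, 0.153 with quantile normalization, 0.0918 with the probeset of largest SD and 0.0589 with genes of low range left out, all short of the threshold. No test compared the lists with each other.

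The genes nearest to the members that rose were found by distance over the 4 differences from untreated cells. For Hspa9 these were Snhg4, a host gene of small nucleolar RNAs, at a distance of 0.07 (log2), Akr1c19, an aldo-keto reductase, at 0.10 and Gng5, a G protein γ subunit, at 0.12. Snhg4 differed by 0.40 and 0.27 with Dox and by 0.49 and 0.44 with Dox+4μ8c in experiments 1 and 2. For Htra2 they were Ormdl2, of the family that restrains sphingolipid synthesis, at 0.03, Arfip1 at 0.04 and Ttc17 at 0.04. Ormdl2 differed by 0.25 and 0.34 with Dox and by 0.08 and 0.08 with Dox+4μ8c. Likeness over 4 differences that share their untreated arrays is a description only.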

How the data were processed

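Affymetrix arrays were hybridized with RNA from 200 ng of total RNA. The authors deposited log2 values from RMA, whose version is not given in the sources used here, centred per probeset within an experiment (median over 3 arrays 0 in 100% of the 25476 probesets in experiment 1 and in 0.836% in experiment 2, where 2 of the 3 values were equal and opposite in 49.2%). The centring thus differed between the experiments, and its rule for experiment 2 is not given in the sources used here. RMA summarises the probes of a probeset by median polish, which can return exactly equal values when few arrays are processed together. Whether this gave the ties at 0 in experiment 1 was not tested. Levels and detection cannot be given, and the number of arrays limits the precision.

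After leaving out 52 control probesets, 17978 probesets had 1 symbol, 378 several and 7068 none in the platform annotation. Values were averaged per symbol (12603 genes, no filter). limma 3.58.1 in R 4.3.3 fitted 3 groups plus the experiment (lmFit, eBayes, two-sided, Benjamini-Hochberg over all genes), with 2 residual and 4.25 prior degrees of freedom. Tables and figures used matplotlib 3.10.9, scipy 1.17.1, numpy 2.4.6, pandas 2.3.3 and Python 3.11.15. The labels' replicate number stood for the experiment, since the study describes 2 independent experiments. Deviations from group means correlated between groups over genes at r of 0.03 to 0.10, which the centring makes uninformative about the pairing. The procedure was run on simulated data with independent normal noise, centred on the median of 3 arrays in both experiments. Those data lacked the shared ties of experiment 1 and the different centring of experiment 2, so they cannot show how the fit handles either.

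Members, lists and tests were chosen with earlier results of these data known. Named were all 10 members, up to 4 genes past the test per list, and the 3 genes nearest to each member past the test. Grpel1, Clpx, Gdf15, Dnajb9, Dnajc3, Gcg, Iapp and Mafa lie outside this rule and were named after their values were seen. Promoters are from RefSeq (GRCr8). Alternatives covered the experiment term, scaling, probeset summary, ambiguous probesets, a filter on the range over all arrays, robust eBayes and each array left out. Fits on single probesets and without genes tied at 0 were added after seeing the data.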

Additional observations from a re-analysis of the deposited data

How the results depend on the processing

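Of 432 member results under 15 alternatives, 16 changed sign, the largest of these at 0.043 in size, and 17 lost their call, all of Hspa9 or Htra2. The 2 members called higher with Dox became 0 with no replicate block or with quantile normalization and 1 with the probeset of largest SD per gene, and ranged from 0 to 2 with 1 array left out. The 1 called with Dox+4μ8c became 0 with no replicate block and ranged from 0 to 1 with 1 array left out. No member was called between Dox+4μ8c and Dox under any alternative. Leaving out genes tied at 0 in experiment 1 (chosen after seeing the data) gave 2, 1 and 0.

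Over all genes, the calls higher and lower (557 and 253 with Dox, 148 and 142 with Dox+4μ8c, 22 and 203 between these) became 303 and 137, 0 and 0, and 14 and 129 with no replicate block. With quantile normalization they were 207 and 79 with Dox and 0 and 1 between the treated groups. With the probeset of largest SD they were 366 and 111, 51 and 25, and 0 and 0. Leaving out genes of low range gave 232 lower with Dox+4μ8c, and 82 and 316 between the treated groups. With 1 array left out they ranged from 177 to 1104 and 61 to 655, from 8 to 318 and 2 to 394, and from 0 to 325 and 0 to 580.

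The values that changed sign without any array left out were, with Dox, Yme1l1 at -0.0048 with the probeset of largest SD and, between Dox+4μ8c and Dox, Hspa9 at -0.0057 with that probeset and Lonp1 at 0.043 and Clpp at 0.0049 with quantile normalization. With 1 array left out, Hspe1 ranged from -0.0014 to 0.044 with Dox. With Dox+4μ8c, Dnaja3 ranged from -0.013 to 0.025, Clpp from -0.023 to 0.17 and Afg3l2 from -0.038 to 0.065. Between Dox+4μ8c and Dox, Hspe1 ranged from -0.0021 to 0.025, Trap1 from -0.0039 to 0.084, Lonp1 from -0.080 to 0.042, Clpp from -0.13 to 0.037 and Afg3l2 from -0.19 to 0.013. The cause was not tested. A group with an array left out keeps 1 array, assumed to vary like the others. With 2 arrays per group and centred values, signal over background cannot be given.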
